A study of Mus musculus with 9 samples.

Results

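The genes described here encode the machinery through which a new secretory protein enters and leaves the endoplasmic reticulum (ER). They were taken as a fixed list of 43 symbols, and all 43 were found among the 24378 gene rows of the count table. The list covers 8 functional groups: the translocon with its associated proteins, signal peptidase, oligosaccharyltransferase, the 2 ER heat shock chaperones, the lectin chaperones, the disulfide isomerases, stress and degradation genes, and the COPII coat with its p24 cargo receptors. RNA with polyA tails was counted for each gene in 9 single cells, taken from the hypothalamic paraventricular nucleus region of C57Bl6/N mice aged 21 to 28 days. All 9 cells carry one label, secretagogin-positive, and are numbered 1 to 9 as in that label. No animal is named, and there is no control or treated group. The cells were therefore treated as 1 sample and are not replicates of a condition, so no test was run and no p-value is given.

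A protein with a signal peptide is threaded through the Sec61 channel into the ER while it is being made. There the signal peptide is cut off, sugar chains are attached, chaperones and disulfide isomerases fold the chain, and COPII vesicles carry the product to the Golgi. Neuroendocrine neurons of the paraventricular nucleus send peptide hormones and granins, the acidic proteins of dense-core granules, through this route in large amounts. When unfolded protein builds up in the ER, the transcription factors Xbp1, Atf6 and Atf4 raise the expression of chaperones and of degradation genes.

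The values are whole numbers that the authors called molecules, and a level here is the number of molecules per 10000 gene molecules of the same cell. Cell 1 was the shallowest, with 1021 gene molecules, followed by cell 6 with 3393. Cell 5 was the deepest, with 26466, and the median was 9573. The largest level that a count of 0 allows, set at 3 molecules, was 29.4 in cell 1, 8.84 in cell 6 and 1.13 in cell 5, so a 0 in cells 1 and 6 says little. Brackets and intervals are exact 95% Poisson intervals, or exact Clopper-Pearson intervals for shares of molecules, and cover counting error only. Spike-in RNA gave 1962 to 2184 molecules in cells 1 to 8, whose column names give lane 3. Cell 9, alone named with lane 4, had 614, and its lane and the cell itself cannot be told apart. Scgn, the secretagogin gene of the label, had 17 molecules in all and was detected in 5 cells.

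Of 14 neuronal markers, 3, 11, 11, 8, 13, 6, 9, 8 and 11 were detected in cells 1 to 9. Their sum was 28.8 in cell 8 and 33.3 in cell 4, and 115 to 715 in the others. Meg3 and Snhg11, both long non-coding RNAs, made up most of it in some cells: 61 and 11 of 73 molecules in cell 1, 33 and 4 of 45 in cell 6, and 75 and 56 of 148 in cell 7. Markers of other cell types were high in 4 cells. Cell 4 held 4 of 7 blood markers, at 2085 per 10000, and 9 of 9 endothelial markers, at 109. Cell 7 held 8 of 9 endothelial markers, at 82.4. Cell 5 held 12 of 12 oligodendrocyte markers, at 212, and cell 8 held 8 of 9 ependymal and tanycyte markers, at 271, with 4 of 9 astrocyte markers, at 22.0. The largest sum of any of these lists in the other 5 cells was 8.84, from 3 endothelial molecules in cell 6. All markers of microglia and of oligodendrocyte precursors were at 0 in every cell. The part of these other cell types in the levels given below was not tested, and the summed counts and the correlations of the 43 genes together are also given without cells 4, 5, 7 and 8. In such a mixed cell, more RNA of the gene in one cell and RNA from a second cell cannot be told apart.

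The 43 genes together held 931 molecules, or 1.02% of all gene molecules. Each of the 43 had at least 1 molecule in some cell. At least 1 molecule was found in at least 5 of the 9 cells for 25 members (58.1%), against 6.76% of all gene rows and 16.9% of the 9779 rows with a molecule in any cell. The other 18 were found in 1 to 4 cells. The median member had 17 molecules, and the median row with any molecule had 3. Without cells 4, 5, 7 and 8, 20 members were found in at least 3 of the remaining 5 cells. Over all 9 cells the count was 14 when detection required 2 molecules and 7 when it required 3. The share of all gene rows was not computed under these other rules, so whether the members differ from it there was not tested.

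**Figure D1:**
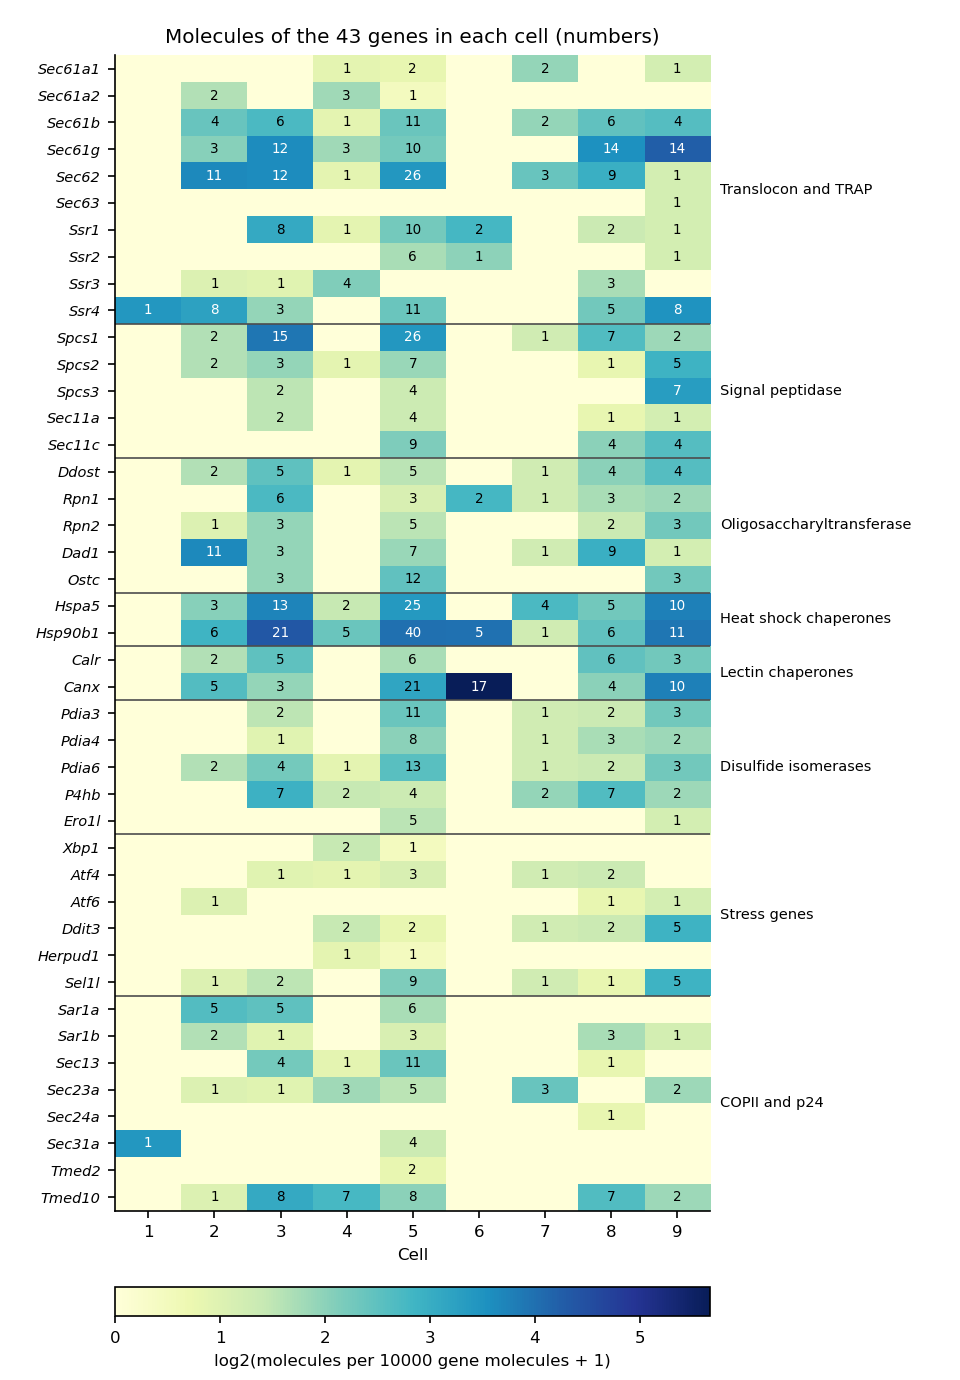
Molecules of each of the 43 genes (rows, grouped by role) in each of the 9 cells (columns). Numbers are molecules, blank fields are 0, and the colour gives log2(molecules per 10000 gene molecules + 1). Cells 3, 5, 8 and 9 are filled in most rows, cells 1 and 6 are nearly empty, and the darkest field is Canx in cell 6 with 17 molecules.

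The summed level of the 43 genes differed several-fold between cells of like depth. Cell 9 stood at 158 (interval 132 to 189), cell 3 at 151 (129 to 176) and cell 5 at 131 (118 to 146), and these intervals overlapped. Cell 8 had 93.4 (77.6 to 111), cell 6 had 79.6 (52.4 to 116) and cell 2 had 79.4 (62.6 to 99.4). Cell 7 had 37.7 (24.9 to 54.9), cell 4 had 35.8 (25.9 to 48.2) and cell 1 had 19.6 from 2 molecules (2.37 to 70.8). The intervals of cells 4 and 7 lay wholly below those of cells 2, 3, 5, 8 and 9. Cell 4, at 12024 gene molecules, was deeper than cells 2, 3 and 9.

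Cells 4 and 7 are the cells with endothelial markers, and cell 4 also holds globin. When mitochondrial, ribosomal-protein and globin genes were left out of the total, the level of cell 4 was 81.4 (58.9 to 110) and overlapped that of cell 2, at 89.0. The level of cell 7 was then 45.0 (29.7 to 65.5). The separation of cell 4 from cell 2 thus depends on the total used. Cell 7 remained below cells 2, 3, 5, 8 and 9 on either total. On the reduced total cell 4 still stood below cells 3, 5 and 9, at 176, 150 and 172. With only mitochondrial genes left out, cell 4 stood at 46.2, against 85.6 in cell 2. Levels of the groups and of the other gene lists below use the full total of gene molecules, unless stated. They were not computed on the reduced total. The number of the 43 genes detected was 2, 22, 30, 20, 39, 5, 17, 30 and 33 in cells 1 to 9. That is 4.65, 51.2, 69.8, 46.5, 90.7, 11.6, 39.5, 69.8 and 76.7% of the 43. Of all gene rows, 2.02, 14.3, 14.2, 9.87, 22.7, 4.68, 10.6, 16.9 and 11.6% were detected in the same cells.

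**Figure D2:**
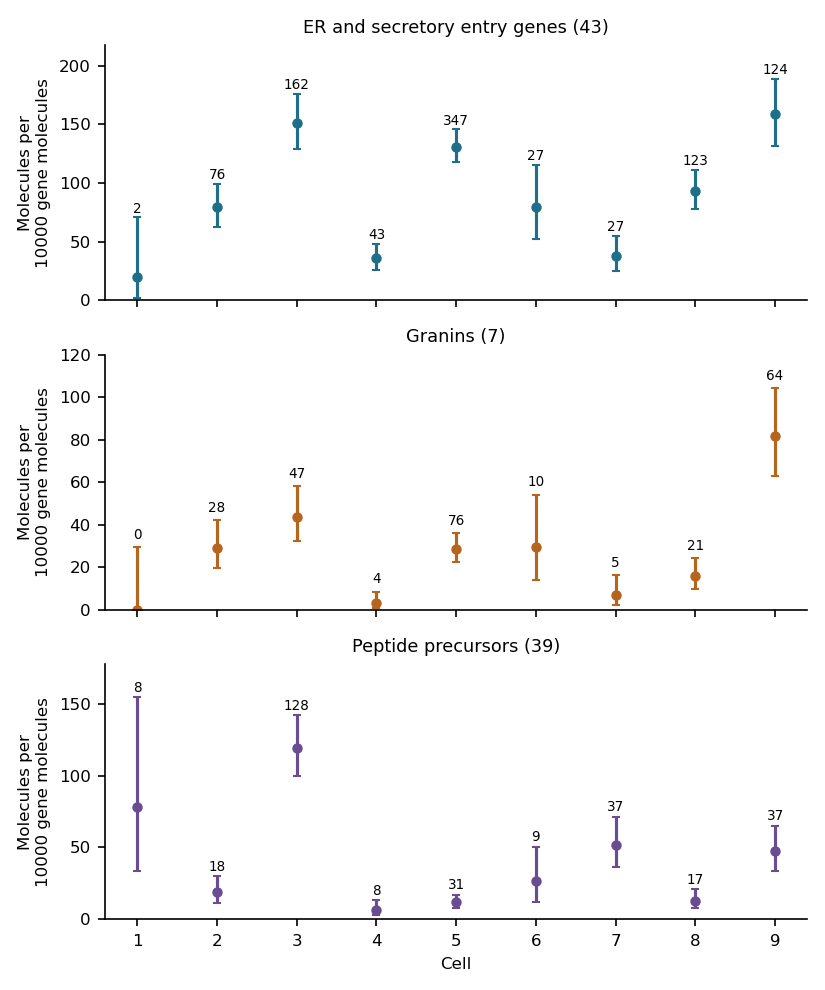
Summed molecules per 10000 gene molecules in each cell for the 43 ER and secretory entry genes, the 7 granin genes and the 39 peptide precursor genes. Points are levels, bars are exact 95% Poisson intervals (for a count of 0, up to 3 molecules), and the numbers are molecules. The ER genes and the granins are both highest in cell 9 and low in cells 4 and 7, while the peptide precursors are highest in cell 3.

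The genes of translocation, the first step of the route, held the largest part of the molecules and are also the largest group, with 10 members. The Sec61 channel, the Sec62 and Sec63 proteins that assist it and the 4 subunits of the translocon-associated protein complex (TRAP, the Ssr genes) together held 243 of the 931 molecules, or 26.1% (23.3 to 29.0). The group was also first when molecules were divided by the length of the longest annotated transcript, at 31.6%. Neither share is corrected for the number of genes in a group, and the 2 heat shock chaperone genes alone held 157 molecules. Its level was 9.79, 30.3, 39.1, 11.6, 29.1, 8.84, 9.78, 29.6 and 39.6 in cells 1 to 9, and the value of cell 1 rested on 1 molecule. On the full total, the intervals of cells 4 and 7 lay below those of cells 2, 3, 5, 8 and 9. The bounds of cells 7 and 2 nearly touched, at 20.1 and 20.3. On the reduced total the summed level of cell 4 was 81.4 in place of 35.8. Whether its translocon level stays apart on that total was not tested.

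The small subunits of the channel were counted more often than the pore itself. Sec61a1 and Sec61a2, which encode alternative forms of the channel, had 6 molecules each and were found together in 2 cells; these closely related genes may share reads. Of the small subunits, Sec61b had 34 molecules and Sec61g had 56. Per kilobase of the longest transcript these were 1.89 and 2.45 molecules for the pore genes and 47.0 and 30.1 for the small subunits. The small subunits have the shorter transcripts, so this division could only widen the gap and is no test of it.

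Sec61g and Sec62 were distributed differently over the cells. Sec61g (chromosome 11 at 16500530 to 16508484, minus strand, GRCm38/mm10) had 0, 3, 12, 3, 10, 0, 0, 14 and 14 molecules in cells 1 to 9. Sec62 (chromosome 3 at 30792875 to 30821263, plus strand) had 0, 11, 12, 1, 26, 0, 3, 9 and 1. Sec61b had 0, 4, 6, 1, 11, 0, 2, 6 and 4. In cell 9 the level of Sec61g was 17.9 (9.78 to 30.0) and that of Sec62 was 1.28 (0.0323 to 7.12). In cell 2 the levels were 3.13 (0.646 to 9.16) for Sec61g and 11.5 (5.74 to 20.6) for Sec62. Sec61g thus led in cell 9, where the intervals do not overlap, and in cell 2 the higher level of Sec62 stayed within overlapping intervals. The pair was chosen after its values were seen.

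The TRAP subunits, which bind next to the channel and help some signal peptides to insert, were uneven. Ssr4 had 1, 8, 3, 0, 11, 0, 0, 5 and 8 molecules in cells 1 to 9. Ssr1 had 0, 0, 8, 1, 10, 2, 0, 2 and 1, and Ssr3 had 0, 1, 1, 4, 0, 0, 0, 3 and 0. Ssr2 had 8 in all, of which 6 lay in cell 5. All 4 are subunits of one complex, and no cell held molecules of all 4. Sec63, the membrane partner that recruits BiP to the channel, had a single molecule, in cell 9.

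Signal peptidase, which cuts the signal peptide from the chain, was concentrated in fewer cells. Its 5 genes held 0, 4, 22, 1, 50, 0, 1, 13 and 19 molecules in cells 1 to 9, or 110 in all. Cell 9 stood at a level of 24.3 (14.6 to 37.9), cell 3 at 20.5 (12.8 to 31.0) and cell 5 at 18.9 (14.0 to 24.9). Cell 2 stood at 4.18 (1.14 to 10.7), cell 7 at 1.40 (0.0354 to 7.78) and cell 4 at 0.832 (0.0211 to 4.63). The 3 high cells and the 3 low cells did not overlap in their intervals. Cells 4 and 7 carry endothelial markers, and cell 2 holds 1 molecule of the lists of other cell types, an astrocyte marker.

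Spcs1, an accessory subunit, gave 53 of the 110 molecules, and had 0, 2, 15, 0, 26, 0, 1, 7 and 2 in cells 1 to 9. Exons of Spcs1 (chromosome 14 at 30999826 to 31001672, minus strand) lie under Glt8d1 on the opposite strand, which had 4 molecules. Spcs2 had 0, 2, 3, 1, 7, 0, 0, 1 and 5, and Spcs3, which is needed for the enzyme to work, had 0, 0, 2, 0, 4, 0, 0, 0 and 7. Cell 9 therefore held the highest levels of Spcs2, at 6.39, and Spcs3, at 8.94, but only 2.56 of Spcs1, against 14.0 in cell 3. Of the 2 catalytic subunits, Sec11c had 0, 0, 0, 0, 9, 0, 0, 4 and 4 molecules, and Sec11a had 8 spread over 4 cells. Only cells 5, 8 and 9 held both of them.

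Oligosaccharyltransferase, which transfers sugar chains to asparagine residues of the growing chain, held 103 molecules. Cell 3 stood at a level of 18.6, cell 9 at 16.6, cell 2 at 14.6, cell 8 at 13.7 and cell 5 at 12.1, and all these intervals overlapped. Cell 4 had 0.832 (0.0211 to 4.63), from 1 molecule of Ddost, and lay below all 5 on the full total. Whether it does so on the reduced total was not tested. Ddost, a core subunit, had 0, 2, 5, 1, 5, 0, 1, 4 and 4 molecules in cells 1 to 9. Dad1, a small membrane subunit, had 0, 11, 3, 0, 7, 0, 1, 9 and 1, so that its highest level, 11.5 (5.74 to 20.6), was in cell 2, against 2.64 (1.06 to 5.45) in cell 5. The other members were highest elsewhere. The ribophorin Rpn1 had 0, 0, 6, 0, 3, 2, 1, 3 and 2 molecules and Rpn2 had 0, 1, 3, 0, 5, 0, 0, 2 and 3. Ostc, a subunit of the form of the enzyme that works at the translocon, had 0, 0, 3, 0, 12, 0, 0, 0 and 3.

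The ER chaperones were the second largest part by molecules. Hspa5 encodes BiP, the Hsp70 of the ER lumen, and Hsp90b1 encodes GRP94, its Hsp90. Together they held 157 molecules, or 16.9% of the total (14.5 to 19.4), and per kilobase they came behind the translocon and signal peptidase, at 11.8%. Hsp90b1 (chromosome 10 at 86690209 to 86705509, minus strand) had 0, 6, 21, 5, 40, 5, 1, 6 and 11 molecules in cells 1 to 9. It was the member found in the most cells, 8 of 9. Hspa5 (chromosome 2 at 34771970 to 34777547, plus strand) had 0, 3, 13, 2, 25, 0, 4, 5 and 10.

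The pair was high in the same 3 cells. Cell 3 stood at 31.7 (21.9 to 44.3), cell 9 at 26.8 (16.6 to 41.0) and cell 5 at 24.6 (19.0 to 31.3). Cell 2 stood at 9.40 (4.30 to 17.8), cell 8 at 8.35 (4.17 to 14.9), cell 7 at 6.98 (2.27 to 16.3) and cell 4 at 5.82, from 7 molecules. On the full total, the intervals of cells 3, 5 and 9 lay above those of cells 4, 7 and 8. Among cells 3, 5 and 9, that of cell 2 overlapped only the one of cell 9. Whether cell 4 stays apart on the reduced total was not tested. Cell 6 had 14.7 from 5 molecules, and its interval of 4.78 to 34.4 overlapped all others.

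The promoters of several members carry the ER stress response element (ERSE), to which Atf6 and Xbp1 bind together with the factor NF-Y. The element was searched on both strands as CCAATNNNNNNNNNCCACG in RefSeq promoters (GRCm38.p6), which run from 250 bases before to 50 bases after each start site. It was found for 5 of the 36 members that have a promoter in that table (13.9%), and for 37 of all 27025 genes in it (0.137%). The 5 are Hspa5, Hsp90b1, Calr, Canx and Pdia6, all chaperones or isomerases. The shorter ERSE-II, ATTGGNCCACG, was found for Herpud1 alone among the members and for 12 genes in all (0.0444%). The promoter of Hspa5 (chr2:34771840-34772139, plus strand) is given in full because it is the classic target of this response, with the fixed letters of the element in capitals. For the others the element is shown with 20 bases on either side, 5′ to 3′ along the gene's strand, so that its spacing and direction can be compared. Hsp90b1 is shown with both of its elements and the bases between them. In Calr, and for the second one of Hsp90b1, the element lies on the opposite strand and is therefore seen as its reverse complement.
Hspa5: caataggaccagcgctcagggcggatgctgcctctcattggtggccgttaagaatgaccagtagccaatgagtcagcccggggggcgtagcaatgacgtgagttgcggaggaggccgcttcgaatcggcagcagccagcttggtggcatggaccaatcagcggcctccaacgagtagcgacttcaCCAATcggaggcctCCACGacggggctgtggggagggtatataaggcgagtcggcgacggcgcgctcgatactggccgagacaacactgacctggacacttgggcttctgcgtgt
Hsp90b1 (chr10:86705513-86705676, minus strand): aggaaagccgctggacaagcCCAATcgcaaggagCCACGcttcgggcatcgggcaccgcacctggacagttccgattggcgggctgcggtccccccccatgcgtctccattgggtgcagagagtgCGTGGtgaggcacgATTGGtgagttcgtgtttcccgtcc
Canx (chr11:50325780-50325838, minus strand): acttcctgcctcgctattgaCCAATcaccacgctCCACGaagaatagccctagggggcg
Calr (chr8:84847055-84847113, minus strand): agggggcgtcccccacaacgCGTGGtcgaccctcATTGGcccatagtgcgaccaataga
Pdia6 (chr12:17266471-17266529, plus strand): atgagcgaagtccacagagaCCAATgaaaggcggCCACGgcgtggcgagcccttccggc
Herpud1 (chr8:94386357-94386407, plus strand): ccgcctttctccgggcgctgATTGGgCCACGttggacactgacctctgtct

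The element began 65 bases before the start site in Hspa5, 98 in Pdia6, 145 in Canx and 162 in Calr. Hsp90b1 held 2 of them, in opposite directions, at 212 and 107 bases. These matches describe the sequence of the windows. The share of members with the element, beside that of all genes, is not a test. The list includes Hspa5, the classic target of this response, so a match there was known beforehand. The 5 genes with the element held 95 molecules (Hsp90b1), 62 (Hspa5), 60 (Canx), 26 (Pdia6) and 22 (Calr), and Herpud1, with the shorter element, had 2. Members with a promoter but neither element ranged from 1 molecule (Sec63) to 63 (Sec62). Whether the element goes with the counts was not tested.

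Calnexin and calreticulin are the paired lectin chaperones that hold glycoproteins until they are folded, calnexin in the membrane and calreticulin in the lumen. Canx (chromosome 11 at 50293961 to 50325673, minus strand) had 0, 5, 3, 0, 21, 17, 0, 4 and 10 molecules in cells 1 to 9. Calr (chromosome 8 at 84841850 to 84846934, minus strand) had 0, 2, 5, 0, 6, 0, 0, 6 and 3. The genes differed most in cell 6. There Canx reached a level of 50.1 (29.2 to 80.2), while the next highest cell, cell 9, had 12.8 (6.13 to 23.5) and cell 6 had no molecule of Calr.

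In cell 6, Canx alone made up 17 of the 27 molecules of the 43 genes, or 63.0% (42.4 to 80.6). In the other 8 cells together it made up 43 of 904, or 4.76%. Without Canx, the summed level of cell 6 was 29.5 in place of 79.6. Cell 6 also had the highest share of mitochondrial molecules, at 34.2%, and without mitochondrial genes in the total its Canx level was 76.2, against 13.4 in cell 9. The other members found in cell 6 were Hsp90b1 with 5 molecules, Ssr1 and Rpn1 with 2 each and Ssr2 with 1. How duplicate reads were collapsed into these 17 molecules was not given.

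The disulfide isomerases, which form and rearrange disulfide bonds, held 90 molecules. Cell 5 stood at a level of 15.5 (11.1 to 21.0), cell 9 at 14.1, cell 3 at 13.0, cell 8 at 10.6 and cell 7 at 6.98. Cell 4 stood at 2.50 (0.515 to 7.29) and cell 2 at 2.09 (0.253 to 7.55). On the full total, the interval of cell 5 lay above those of cells 2 and 4. Whether cell 4 stays apart on the reduced total was not tested. P4hb, which encodes protein disulfide isomerase itself, had 0, 0, 7, 2, 4, 0, 2, 7 and 2 molecules in cells 1 to 9. Pdia6 had 0, 2, 4, 1, 13, 0, 1, 2 and 3. Pdia3, the isomerase that works with calnexin and calreticulin, had 0, 0, 2, 0, 11, 0, 1, 2 and 3, and Pdia4 had 0, 0, 1, 0, 8, 0, 1, 3 and 2. The deepest cell, cell 5, held more molecules of Pdia3, Pdia4 and Pdia6 than any other cell, whereas P4hb had most in cells 3 and 8. Ero1l, the oxidase that recharges the isomerases, had 5 molecules in cell 5 and 1 in cell 9. Cell 6, with the most calnexin for its depth, held no molecule of Pdia3 or of any other isomerase, and its limit for a count of 0 was 8.84.

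Stress and degradation genes were sparse. The 6 genes held 47 molecules, 5.05% of the total (3.73 to 6.66), fewer than any other group, and they were also last per kilobase. Xbp1, the transcription factor activated by splicing under ER stress, had 2 molecules in cell 4 and 1 in cell 5. Atf6, the sensor released from the ER membrane, had 1 molecule each in cells 2, 8 and 9. Atf4, the factor induced when translation is held back, had 8 molecules in 5 cells and at most 3 in any. Herpud1, a component of ER-associated degradation, had 1 each in cells 4 and 5. None of these 4 factors and targets exceeded 3 molecules in any cell.

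The remaining pair of this group had its highest level in cell 9. Sel1l (chromosome 12 at 91806043 to 91849157, minus strand), the adaptor of the degradation ligase, had 0, 1, 2, 0, 9, 0, 1, 1 and 5 molecules in cells 1 to 9. Ddit3 (chromosome 10 at 127290774 to 127296288, plus strand), which encodes the stress-induced factor CHOP, had 0, 0, 0, 2, 2, 0, 1, 2 and 5. In cell 9 both stood at 6.39 (2.07 to 14.9), and the group reached 14.1 (7.02 to 25.1), against 6.05 in cell 5 (3.46 to 9.82), the next highest. The intervals of cells 9 and 5 overlapped. Part of the Ddit3 exons lies under Mars on the opposite strand, and Mars had 4 molecules, none of them in cell 9.

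**Figure D3:**
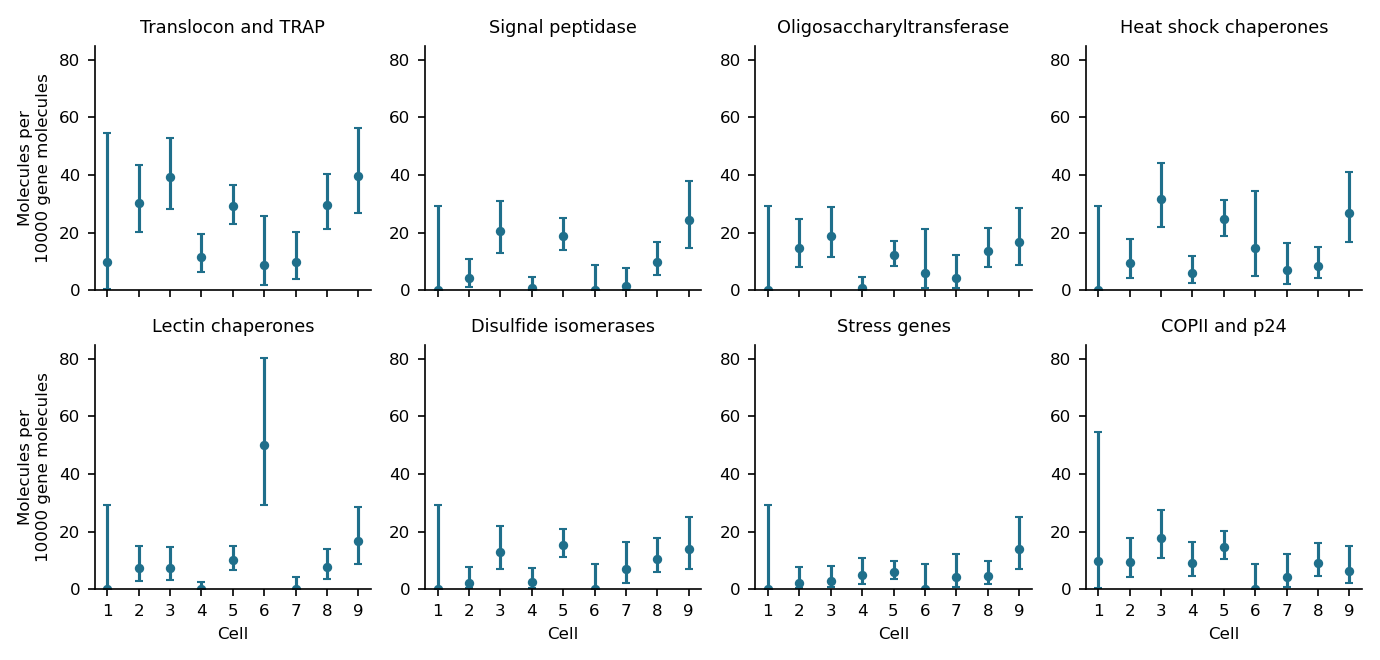
Level of each of the 8 groups in each cell, in molecules per 10000 gene molecules on one common scale. Points are levels and bars are exact 95% Poisson intervals (for a count of 0, up to 3 molecules). Signal peptidase and the heat shock chaperones are high in cells 3, 5 and 9, the lectin chaperones stand at 50.1 in cell 6, and COPII lies between 9.11 and 17.7 in cells 2, 3, 4, 5 and 8.

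The COPII coat, which buds vesicles from the ER, and the p24 cargo receptors held 99 molecules. Cell 3 stood at a level of 17.7 (10.7 to 27.7), cell 5 at 14.7 (10.5 to 20.1), cell 2 at 9.40, cell 4 at 9.15, cell 8 at 9.11, cell 9 at 6.39 (2.07 to 14.9) and cell 7 at 4.19 (0.864 to 12.2). The intervals of these 7 cells all overlapped that of cell 5, and cell 6 had no molecule. Cell 4, which was low in most groups on the full total, held 11 COPII and p24 molecules, 7 of them from Tmed10. That total includes its blood markers, at 2085 per 10000, and its group levels without globin genes were not computed. Cell 9, with the highest summed level of the 43 genes, held 5.

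Sar1a and Sar1b encode the GTPase that starts the coat. Sar1a had 0, 5, 5, 0, 6, 0, 0, 0 and 0 molecules in cells 1 to 9. Sar1b had 0, 2, 1, 0, 3, 0, 0, 3 and 1 and was the form found in cells 8 and 9. Of the inner coat, Sec23a had 0, 1, 1, 3, 5, 0, 3, 0 and 2, and Sec24a, its cargo-binding partner, had 1, in cell 8. Of the outer coat, Sec13 had 0, 0, 4, 1, 11, 0, 0, 1 and 0, and Sec31a had 4 in cell 5 and 1 in cell 1. Tmed10, a p24 receptor, had 0, 1, 8, 7, 8, 0, 0, 7 and 2, whereas its partner Tmed2 had 2, both in cell 5.

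The machinery was then set beside its cargo. The 7 granin genes, which are Chga, Chgb, Scg2, Scg3, Scg5, Vgf and Pcsk1n, held 255 molecules, among them 105 of Scg2 and 76 of Scg5. Cell 9 stood at a granin level of 81.8 (63.0 to 104), cell 3 at 43.8 (32.2 to 58.2), cell 6 at 29.5 (14.1 to 54.2), cell 2 at 29.2 (19.4 to 42.3) and cell 5 at 28.7 (22.6 to 35.9). Cell 8 stood at 15.9 (9.87 to 24.4), cell 7 at 6.98 (2.27 to 16.3) and cell 4 at 3.33 (0.906 to 8.52), and cell 1 had no granin molecule. Cells 9 and 3 were thus the highest, and cells 7, 4 and 1 the lowest, both for the 43 genes and for the granins.

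Across the 9 cells the Spearman correlation between the level of the 43 genes and that of the granins was 0.867. It ranged from 0.810 to 0.929 when any 1 cell was left out, and it was 0.893 over 7 cells without the 2 shallowest. Without cells 4, 5, 7 and 8 it was 1.00 over 5 cells, where cells 2 and 6 differed by less than their counting error in both measures. Over the 9 cells the correlation with the total of gene molecules was 0.400 for the 43 genes and 0.0667 for the granins. It was 0.5 for both over the 5 cells without cells 4, 5, 7 and 8, and 0.0357 for the 43 genes and -0.214 for the granins over the 7 cells without the 2 shallowest. All 9 cells carry one label, and cell 9, the highest in both measures, is the only one of lane 4. Without cell 9 the correlation was 0.810. Both levels share the total of the cell as denominator, and no p is given. By group, the correlation with the granins was highest for the heat shock chaperones, at 0.933, and oligosaccharyltransferase, at 0.867, and lowest for the stress genes, at 0.184, and COPII, at -0.0667. Differences between these values were not tested.

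The ratio of the 2 contents was not constant. Molecules of the 43 genes for each granin molecule were 2.71, 3.45, 10.8, 4.57, 2.70, 5.40, 5.86 and 1.94 in cells 2 to 9. As a share of both contents together, the 43 genes made up 66.0% in cell 9 (58.7 to 72.7), and this interval lay below those of cells 5, 8 and 4, at 82.0% (78.0 to 85.6), 85.4% (78.6 to 90.7) and 91.5% (79.6 to 97.6). The intervals of all other cells, among them cell 3 (71.2 to 83.0) and cell 7 (67.2 to 94.7), overlapped that of cell 9. The ratio was 3.65 over all cells.

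**Figure D4:**
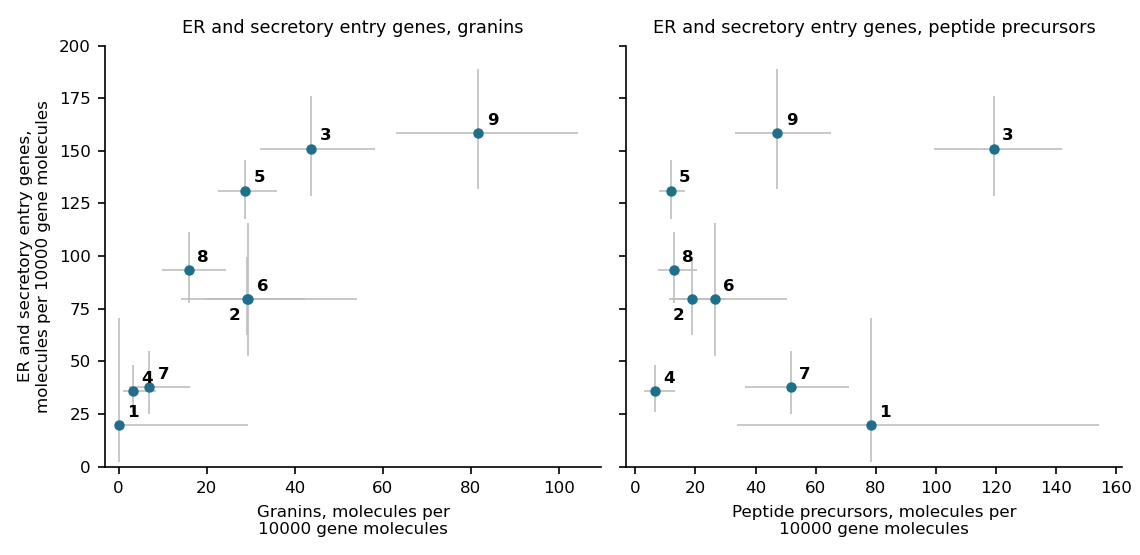
Level of the 43 ER and secretory entry genes against that of the granins (left) and of the peptide precursors (right), in molecules per 10000 gene molecules, with 1 point per cell, labelled by its number. Bars are exact 95% Poisson intervals (for a count of 0, up to 3 molecules). Cells run from low in both measures (cells 1, 4 and 7) to high in both (cell 9) for granins, and show no such order for peptide precursors.

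Peptide content did not follow the same order. The 39 peptide precursor genes held 293 molecules, of which 148 were Sst (somatostatin), 49 Oxt (oxytocin), 36 Crh (corticotropin-releasing hormone), 12 Tac1, 11 Cartpt and 10 Avp (vasopressin). Cell 3 stood at a peptide level of 119 (99.5 to 142), cell 1 at 78.4 from 8 Oxt molecules, cell 7 at 51.7 (36.4 to 71.2), cell 9 at 47.3 (33.3 to 65.2) and cell 6 at 26.5. Cell 2 stood at 18.8, cell 8 at 12.9, cell 5 at 11.7 (7.96 to 16.6) and cell 4 at 6.65. Cell 3 was high for both contents, whereas cell 7, with 29 Sst molecules, was among the lowest for the 43 genes.

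Across the 9 cells the Spearman correlation between the 43 genes and the peptide precursors was 0.0833, and it was between -0.238 and 0.381 when 1 cell was left out, so it has no stable sign. Oxt had 3 to 8 molecules in each of 8 cells, whatever their depth. Without Oxt the correlation was 0.600, and without Oxt and Sst it was 0.817, which leaves Crh with 36 of 96 molecules as the largest part. These exclusions were chosen after the values were seen. In cell 7 there were 27 molecules of the 43 genes and 37 of the peptide precursors, or 0.730 to 1, against 1.27 to 1 in cell 3, which carried 111 Sst molecules. As a share of both, the 43 genes made up 42.2% in cell 7 (29.9 to 55.2) and 55.9% in cell 3 (49.9 to 61.7), and these intervals overlapped. In cell 5 the share was 91.8% (88.6 to 94.4), with 11.2 molecules of the 43 genes for each peptide molecule.

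A list of 9 genes for peptide processing and the granule membrane held 197 molecules. Among them were 67 of Cpe and 42 of Pcsk2, enzymes that trim peptide precursors, and 42 of Ptprn, a membrane protein of dense-core granules that does not process the cargo. Their level was 9.79, 9.40, 20.5, 3.33, 21.5, 32.4, 11.2, 37.2 and 46.0 in cells 1 to 9. The correlation with the 43 genes was 0.767 over the 9 cells and 0.8 over the 5 cells without cells 4, 5, 7 and 8.

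Other genes of the same route were read from a list of 131, of which 130 are in the table. At least 1 molecule was found in at least 5 cells for 29 of them (22.3%), in 1 to 4 cells for 81 and in none for 20. The same rule held for 6.76% of all gene rows and for 16.9% of the rows with a molecule in any cell. The 22.3% of this list was lower than the 58.1% of the 43 genes, a list that was chosen with results of these data known. The 10 with the most molecules were Vcp (54), the ATPase that pulls proteins out of the ER for degradation, Srp14 (53), a protein of the signal recognition particle, Erp29 (44), a luminal relative of the isomerases, Selk (41), Tmx4 (37) and Tmx2 (32), both membrane-bound thioredoxin-like proteins, Nfe2l1 (34), Ergic3 (33), Krtcap2 (32), a subunit of oligosaccharyltransferase, and Bcap31 (26). Vcp had 0, 6, 4, 2, 18, 0, 3, 8 and 13 molecules in cells 1 to 9. Summed over the list, cell 9 stood at 180, cell 3 at 156, cell 5 at 130 and cell 8 at 124, against 68.4 for cell 7 and 41.6 for cell 4. On the full total, cells 9 and 3 were thus highest and cell 4 was low for these genes too. The 43 genes share that total, which in cell 4 includes globin. The level of this list on the reduced total was not computed.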

How the data were processed

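Whole-number counts, which the authors name molecules, were deposited in 1 table for 24378 gene rows and 92 spike-in rows in 9 cells. Reads were aligned to mm10 with Bowtie, per the submitters' processing notes. Its version, the strand setting and the collapsing of duplicate reads are not given in the sources used here. For 16 members another GENCODE M21 gene lies over exons on the opposite strand, and their reads cannot be told apart without strand. Columns were assigned by the cell number in their names, and 0 value columns were left out. For a symbol with several loci the largest row was taken; no member has more than 1. The 43 members and all comparison and marker lists were chosen with earlier results of these data known.

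Named members are all 43, with those of at least 9 molecules (30) described by cell; the granins, the peptide genes of at least 9 molecules and the 10 most counted other pathway genes are named. No model was fitted, since no animal is named. Alternatives were other detection limits, totals and scalings, thinning (exact hypergeometric expectation), summed loci, transcript length, and leaving out cells. Interval and thinning steps were tested on simulated data. Cell depth limits precision, from 1021 to 26466 gene molecules. Tools were scipy 1.17.1, pandas 2.3.3, numpy 2.4.6, matplotlib 3.10.9 and Python 3.11.15.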

Additional observations from a re-analysis of the deposited data

Results flagged for a closer look

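Of 41 levels compared over the 9 cells (30 member genes, 8 groups, the 43 genes together, the granins and the peptide precursors), 6 had 1 cell apart from the rest by Dixon's 95% critical value for 9 values. Chance flags about 1 in 20 such comparisons where values are alike and normally spread, which sparse counts at unequal depth are not, and the 6 are not independent, so the flags are a description and not a test. In cell 6, Canx stood at 50.1 molecules per 10000, with cell 9 next at 12.8. The lectin chaperone group stood at 50.1 as well, since all 17 of its molecules in that cell are Canx, with 16.6 next in cell 9. In cell 9, the stress group stood at 14.1, with cell 5 next at 6.05, and Ddit3 stood at 6.39 from 5 molecules, with cell 4 next at 1.66. Also in cell 9, Spcs3 stood at 8.94 from 7 molecules and Spcs2 at 6.39 from 5, with cell 3 next at 1.86 and 2.80. For Ddit3, Spcs2, Spcs3 and the stress group, the counting interval of cell 9 overlapped that of the next cell. Cell 9 is the only cell of lane 4, so lane and cell cannot be told apart for 4 of the 6.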

How the results depend on the processing

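The number of members found in most cells (25) was 14 at 2 molecules and 7 at 3 molecules. An expected 1.28 remained after every cell was thinned to 1021 molecules, and 24.9 at 7160 without the 2 shallowest cells. It ranged from 18 to 25 when 1 cell was left out. The share of all gene rows was not computed for these alternatives. The median level of the 43 genes (79.6) was 118 without mitochondrial, ribosomal-protein and globin genes. It stayed between 73.1 and 112 under all other alternatives, which lies inside the counting interval of the median cell. Per 1000 spike-in molecules, cells 3, 5, 8 and 9 stayed above the median cell, which was then cell 2 at 35.2, and cell 6 stood at 13.4. The granin correlation (0.867) was 1.00 without cells 4, 5, 7 and 8. The peptide correlation (0.0833) was 0.200 without those cells, 0.429 without the 2 shallowest, -0.00320 as a Pearson correlation of log2(level + 1), 0.600 without Oxt and 0.817 without Oxt and Sst (both chosen after the values were seen), and -0.238 to 0.381 when 1 cell was left out. The translocon share (26.1%) was 31.6% per kilobase of transcript. For the other groups, 71 of 77 alternative values stayed inside the interval of the main share. Most of the 77 left out 1 cell only and so share most molecules with the main value, and all of those stayed inside. Per kilobase of transcript, signal peptidase made up 15.3% in place of 11.8%. On that scale the heat shock chaperones made up 11.8% in place of 16.9% and the lectin chaperones 6.14% in place of 8.81%. Without cells 4, 5, 7 and 8, the lectin chaperones made up 11.5% in place of 8.81%, the disulfide isomerases 6.91% in place of 9.67% and COPII 8.70% in place of 10.6%. At 2 molecules, the number of cells with the gene changed by over 1.5 times for 16 of 43 members. The causes of these changes were not tested, apart from fewer molecules after thinning. No paired analysis was possible because there is 1 group. Counts of 0 in cells 1 and 6 are limited by depth.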

Other observations

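Ppp1r15a, a stress-inducible regulator of translation downstream of Atf4 and picked out after its values were seen, had 0, 0, 2, 4, 6, 1, 9, 0 and 0 molecules in cells 1 to 9. Cell 7 was otherwise low in the ER genes, with 1 molecule each of Atf4 and Ddit3. The list of other stress and degradation genes stood at 52.4 per 10000 (37.6 to 71.1) in cell 9 and at 30.7 (19.3 to 46.5) in cell 7, against 20.9 (12.8 to 32.3) in cell 2 and 15.8 (9.51 to 24.7) in cell 4. Unlike for the 43 genes, the interval of cell 7 overlapped that of cell 2. Ppp1r15a belongs to this list and gave 9 of its 22 molecules in cell 7. The genes of the signal recognition particle, which brings ribosomes to the translocon, stood at 0, 9.40, 20.5, 4.99, 16.2, 0, 5.59, 18.2 and 24.3 in cells 1 to 9.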
